A study of Homo sapiens with 4 samples.

Results

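The genes described here encode the machinery of mitosis: the cyclins and kinases that start it, the proteins that build the spindle and attach chromosomes to it, the checkpoint that times chromosome separation, and the proteins that compact chromosomes and divide the cell. They were a list of 48 gene symbols, chosen with earlier results of these data known. Each had 1 row among the 27356 genes of the deposited tables, so no member was absent. Messenger RNA was measured by sequencing of polyadenylated RNA from HaCaT, an immortalised human keratinocyte line. There were 2 control libraries, whose cells received phosphate-buffered saline (PBS), and 2 libraries of cells that received M5, a cytokine mixture of oncostatin M, TNF-α and the interleukins IL-1α, IL-17 and IL-22 at 10 μg/L each. Both groups were plated to a density of 50% and collected 72 h after the addition, and nothing else in the labels separates them, except that the treatment tag of the M5 libraries names 25 μM of an agent written DAC. Since M5 is what their titles and the treatment protocol give, the titles were followed. All cells were 1 line, and the labels do not say whether the 2 libraries of a group came from separate cultures, so a p-value here reflects library-to-library spread that may be only technical. The libraries held between 15858644 and 19749612 counts.

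In a dividing cell, transcripts of these genes are low in G1, rise through S phase and G2, and are highest when the cell enters mitosis. Cyclin B with CDK1 drives entry, and the anaphase-promoting complex, with CDC20, later destroys cyclin B and releases the sister chromatids. Basal keratinocytes of the epidermis divide, and cells that leave the basal layer to differentiate stop dividing, so the summed level of such transcripts is commonly used as a measure of how many cells of a culture are cycling. In bulk RNA, fewer dividing cells and less of the RNA in each dividing cell cannot be told apart.

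The mitosis genes were lower in M5. In PBS the 48 genes together held 0.999% and 1.01% of all counts, and in M5 0.624% and 0.637%. CPM here is counts scaled by each library's total over the genes tested below and by TMM composition factors. As CPM, the 48 genes summed to 9577 and 9646 in PBS, against 6662 and 6769 in M5, so both M5 libraries lay below both PBS libraries. The test took genes whose FPKM, a level per gene length and library total, averaged 1 or more over the 4 libraries, and 44 of the 48 genes reached it. Of these, 43 fell at an adjusted p under 0.05 (edgeR quasi-likelihood test, Benjamini-Hochberg adjustment over 10809 genes) and 0 rose, where 27.1% of all tested genes fell, 28.8% rose and 55.9% changed in either direction. At an adjusted p under 0.01, 41 members fell, where 20.7% of all tested genes did. With DESeq2 at 0.05, 41 members fell, where 21.8% of all tested genes did. The median log2 fold change, M5 minus PBS, was -0.53 among the 44 genes, a level 1.45-fold lower, against -0.01 among all tested genes, and 12.3% of all tested genes were at or below that median.

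The fall was shallow and broad. With TMM, 14 of the 44 genes fell at least 1.5-fold, where 9.31% of tested genes did, and the largest fall was 1.87-fold. In 43 of the 44 the CPM of both M5 libraries was under that of both PBS libraries, a pattern seen in 39.4% of tested genes. Other scalings moved the medians of the members and of all genes by like amounts. With library totals in place of TMM factors 43 members fell, where 41.3% of all genes did (4463 lower and 2201 higher, against 2929 and 3114 with TMM), and with TPM scaling all 44 fell, where 43.8% did (4739 lower and 2027 higher). The median of all tested genes was then -0.16 and -0.19, and that of the members -0.68 and -0.72. CENPF and KIF18A were each at -1.05 with library totals and at -1.08 with TPM scaling. KIF20A was at -1.02 with TPM scaling, so these falls passed 2-fold there.

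**Figure D1:**
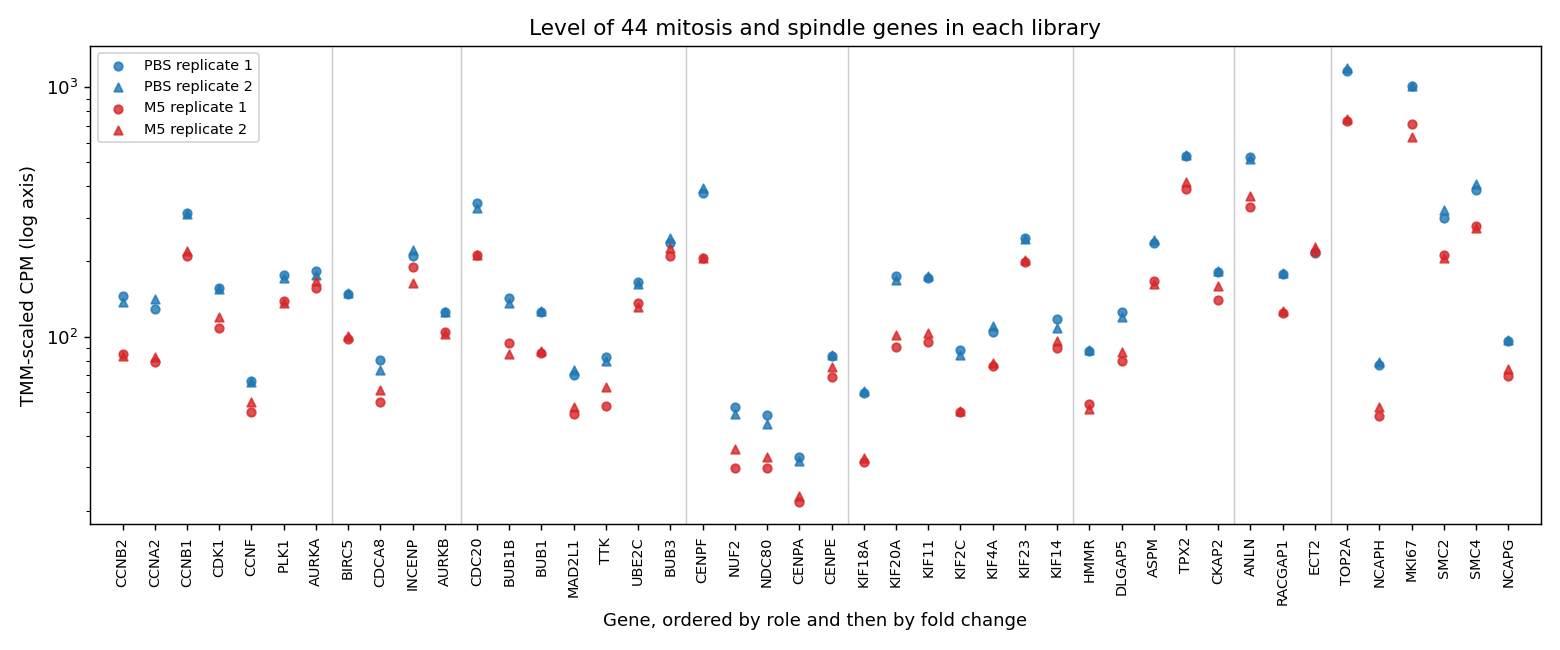
TMM-scaled CPM (log axis) of the 44 tested mitosis and spindle genes in each of the 4 libraries, with genes ordered by role and, within a role, by fold change; each point is 1 library. In 43 genes both M5 points lie under both PBS points, and in ECT2 they overlap.

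Genes of late G2 and mitosis are known to carry short promoter elements that bind the DREAM and MuvB complexes and the factor NF-Y, and the sequences upstream of the members were read to show how many carry them. RefSeq windows of 300 bases, from 250 before to 50 after the outermost start in RefSeq (GRCh38.p14), matched 41 of the 48 genes by symbol. The letters TTTGAA, the core of the cell cycle genes homology region (CHR), stood on either strand in 32 of the 41 windows (78.0%), against 15.5% of 27305 windows of the table and 9.48% of the 8150 windows of tested genes. Its variant TTCGAA stood in 3 (7.32%), against 1.46% and 1.9%. CCAAT, the NF-Y box, stood in 31 (75.6%), against 35.7% and 37.3%. One of the CHR forms together with CCAAT stood in 26 windows (63.4%), against 6.63% and 4.94%. A CCAAT match and a TTTGAA match can share 1 base at their ends, and both were then counted. The 29 tested members with a CHR form had a median log2 fold change of -0.55 and the 8 without had -0.59, and with and without CCAAT the medians were -0.54 (27 genes) and -0.57 (10 genes), and these medians lie close together. The E2F motifs TTTCCCGC and TTTGGCGC stood in 2 windows (4.88%), against 2.31% and 3.87%. A match is a run of letters and not a shown binding site.

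Shown are the 250 bases before the start, 5′ to 3′ on the gene's strand, with CCAAT and TTTGAA matches of either strand in capitals. Not all of the 44 tested members have a window. The genes shown are the pair with the largest fall and the pair with the smallest change among those that do. They are KIF18A (chr11:28108157-28108406, minus strand), CENPF (chr1:214602945-214603194, plus strand), ECT2 (chr3:172750476-172750725, plus strand) and CENPE (chr4:103198344-103198593, minus strand). Matches that begin past the start (CHR at 41 and CCAAT at 13 in CENPF, CHR at 35 in ECT2) and a CCAAT match of ECT2 that spans it are not printed in capitals.
KIF18A: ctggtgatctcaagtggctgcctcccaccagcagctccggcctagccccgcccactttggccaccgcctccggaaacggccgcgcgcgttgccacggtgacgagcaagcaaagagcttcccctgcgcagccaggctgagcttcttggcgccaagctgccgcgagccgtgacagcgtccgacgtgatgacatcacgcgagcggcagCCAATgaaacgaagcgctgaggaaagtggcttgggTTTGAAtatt
CENPF: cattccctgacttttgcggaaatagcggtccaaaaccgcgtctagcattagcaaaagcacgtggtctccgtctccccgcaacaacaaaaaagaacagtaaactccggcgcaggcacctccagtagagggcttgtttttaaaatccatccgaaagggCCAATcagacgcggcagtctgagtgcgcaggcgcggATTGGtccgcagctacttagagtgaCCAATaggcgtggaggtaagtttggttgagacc
ECT2: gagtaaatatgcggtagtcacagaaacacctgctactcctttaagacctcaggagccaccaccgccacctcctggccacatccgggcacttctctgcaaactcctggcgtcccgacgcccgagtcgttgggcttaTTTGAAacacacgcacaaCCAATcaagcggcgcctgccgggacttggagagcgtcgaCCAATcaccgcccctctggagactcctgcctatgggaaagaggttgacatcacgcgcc
CENPE: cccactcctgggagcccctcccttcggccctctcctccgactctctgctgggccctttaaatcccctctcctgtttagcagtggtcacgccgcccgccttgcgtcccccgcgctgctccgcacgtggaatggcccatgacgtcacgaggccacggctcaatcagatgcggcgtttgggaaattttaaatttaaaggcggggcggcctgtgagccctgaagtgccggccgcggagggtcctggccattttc
KIF18A has TTTGAA beginning 10 bases before its start and CCAAT at 45. CENPF has CCAAT on the plus strand at 94 and 33 and on the minus strand at 58. ECT2, the tested member that did not fall, carries TTTGAA at 115 and CCAAT at 97 and 58, and CENPE, with the third smallest fall of all members, carries none of the letters searched.

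All 7 genes of the kinases and cyclins of mitotic entry fell, with a median of -0.44. CCNB1, cyclin B1, had 314 and 309.6 CPM in PBS and 211 and 220.0 CPM in M5 (mean 312 ± 3.06 and 216 ± 6.32, SD, n = 2). Its log2 fold change was -0.53 (SE 0.055, edgeR adjusted p = 1.30e-07), a fall of 30.9% with the groups well apart. CCNB2, cyclin B2, fell further, from 146 and 137 CPM to 84.7 and 83.6 CPM, 1.68-fold lower. CCNA2, cyclin A2 of S phase and G2, went from 128 and 141 CPM to 78.8 and 83.1 CPM, 1.67-fold lower. In CCNA2 the PBS libraries differed more from each other than the M5 libraries did, and still did not reach down to them.

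CDK1, the kinase that the cyclins activate, had 156 and 155 CPM in PBS and 108 and 120.0 CPM in M5, 1.36-fold lower (log2 fold change -0.44, SE 0.062). PLK1, the kinase of centrosome maturation and spindle assembly, fell by 21.2%, and CCNF, a substrate adaptor of an SCF ubiquitin ligase, by 20.9%. AURKA, the kinase of the spindle poles, had the smallest fall of the group, from 183 and 177 CPM to 156 and 167 CPM. Its log2 fold change was -0.16 (SE 0.059, edgeR adjusted p = 0.0309), and the call was lost with DESeq2 (-0.15), without a filter (-0.13) and without PBS replicate 1 (-0.13), PBS replicate 2 (-0.18) or M5 replicate 1 (-0.10), and over all alternatives the adjusted p ran from 0.000116 to 0.259.

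The chromosomal passenger complex, which corrects wrong attachments of chromosomes to the spindle, fell in all 4 subunits, with a median of -0.35. BIRC5, or survivin, had 148 and 149 CPM in PBS and 97.7 and 101 CPM in M5, 1.50-fold lower (log2 fold change -0.58, SE 0.058, edgeR adjusted p = 8.56e-08). CDCA8, or borealin, fell 1.34-fold. AURKB, the kinase of the complex, went from 125 and 126 CPM to 104 and 102 CPM, 1.21-fold lower, and the scaffold INCENP from 211 and 222 CPM to 190.1 and 164 CPM, 1.22-fold lower. The M5 libraries of INCENP lay further apart than those of the other subunits, both below PBS.

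The checkpoint and anaphase genes fell in all 7 cases, with a median of -0.51. CDC20, the activator of the anaphase-promoting complex, had 342 and 329 CPM in PBS and 211 and 212 CPM in M5, 1.58-fold lower (log2 fold change -0.66, SE 0.055, edgeR adjusted p = 5.62e-09). The kinase-like checkpoint protein BUB1B went from 143 and 136 CPM to 93.7 and 85.0 CPM, 1.56-fold lower, and the kinase BUB1 fell 1.46-fold. MAD2L1, which holds CDC20 inactive until chromosomes are attached, fell 1.42-fold, and TTK, the kinase at the head of the checkpoint, 1.41-fold. UBE2C, the ubiquitin-conjugating enzyme of the anaphase-promoting complex, fell less, from 165 and 163 CPM to 136 and 131 CPM, 1.23-fold lower.

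BUB3, which carries BUB1 and BUB1B to kinetochores, was close to level. It had 238 and 247 CPM in PBS and 211 and 227 CPM in M5, -0.15 on the log2 scale (SE 0.058, edgeR adjusted p = 0.0365). The call was lost with DESeq2 (-0.14), without a filter (-0.12) and without PBS replicate 1 (-0.18), PBS replicate 2 (-0.12) or M5 replicate 1 (-0.09), and over all alternatives the adjusted p ran from 0.000125 to 0.295. Within a library, where no scaling enters, there were 1.66 and 1.82 counts of BUB3 for each count of BUB1B in PBS and 2.25 and 2.67 in M5.

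Centromere and kinetochore genes held both strong and weak falls, with a median of -0.57 over the 5 tested of 6. CENPF, a large kinetochore and nuclear matrix protein made in G2 and mitosis (ENSG00000117724, chromosome 1, 214603195 to 214664588 on GRCh38), had 378 and 393 CPM in PBS and 207 and 206 CPM in M5. Its level was 1.87-fold lower (log2 fold change -0.90, SE 0.055, edgeR adjusted p = 6.25e-11), and the groups were far apart against the spread within each. The microtubule-binding NDC80 complex was represented by NDC80, 1.48-fold lower, and NUF2, 1.55-fold lower, the latter from 52.0 and 49.1 CPM to 29.7 and 35.5 CPM. CENPA, the histone H3 variant that marks centromeres, fell 1.45-fold, from 32.9 and 31.7 CPM to 21.6 and 23.0 CPM.

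CENPE, the kinetochore motor that carries chromosomes to the spindle equator, fell by 13.9%, from 83.4 and 84.6 CPM to 68.9 and 75.7 CPM (log2 fold change -0.22, SE 0.066, edgeR adjusted p = 0.00939). That call was lost without a filter (-0.19), without PBS replicate 2 (-0.21) and without M5 replicate 1 (-0.15), and over all alternatives the adjusted p ran from 7.46e-05 to 0.069. For each count of CENPF, PBS held 0.221 and 0.215 counts of CENPE and M5 held 0.333 and 0.368. SPC25, the third NDC80 complex gene listed, had 35 and 34 counts in PBS and 14 and 18 in M5 and did not reach the FPKM filter. Without a filter it fell 2.31-fold (log2 fold change -1.21, SE 0.35, edgeR adjusted p = 0.0271), where 9.99% of 27356 genes fell.

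The kinesin motors had the lowest median of any role, -0.78 over the 7 tested of 8. KIF18A, which damps the movements of chromosomes at the equator (ENSG00000121621, chromosome 11, 28020620 to 28108308), had 59.1 and 60.3 CPM in PBS and 31.3 and 32.6 CPM in M5, 1.87-fold lower (log2 fold change -0.90, SE 0.081, edgeR adjusted p = 1.71e-08). KIF20A, a motor of the central spindle, went from 176 and 168 CPM to 91.1 and 101 CPM, and KIF11, which pushes the spindle poles apart, from 171 and 175 CPM to 95.0 and 103 CPM. They were 1.79-fold and 1.75-fold lower. KIF2C, which shortens microtubules at centromeres, fell 1.72-fold, from 87.9 and 83.9 CPM to 49.8 and 50.1 CPM.

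Other motors fell less. The chromosome arm motor KIF4A went from 105 and 110.2 CPM to 76.1 and 78.0 CPM, 1.40-fold lower. Its near-identical copy KIF4B had at most 3 counts in a library. How reads that fit both were counted is not given, and whether they bear on the level of KIF4A was not tested. KIF23, the motor subunit of centralspindlin, had 249 and 247 CPM in PBS and 199.9 and 202 CPM in M5, 1.24-fold lower, and KIF14, a motor of cytokinesis, fell 1.21-fold. For each count of KIF20A there were 1.42 and 1.47 counts of KIF23 in PBS and 2.19 and 1.99 in M5. Both motors work at the central spindle, and their transcripts did not keep 1 ratio.

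**Figure D2:**
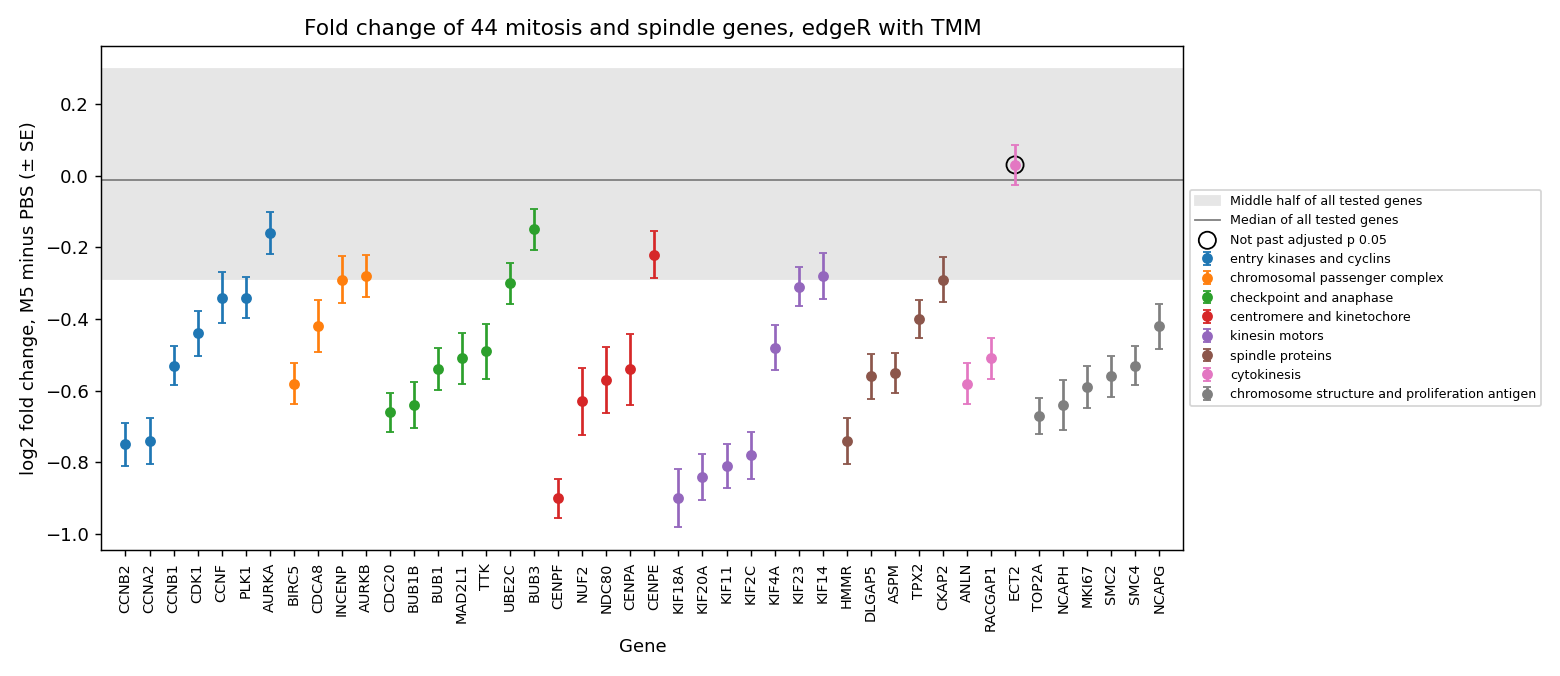
Log2 fold change, M5 minus PBS, of the 44 tested genes in the edgeR fit with TMM factors; points are coloured by role, bars are ± 1 SE, the grey band spans the middle 50% of all tested genes and the line is their median. Fold changes run from -0.90 (KIF18A and CENPF) to 0.03 (ECT2, circled, not past the threshold).

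Spindle proteins fell in all 5 tested of 7 genes, with a median of -0.55. HMMR, which binds the spindle poles and also hyaluronan, had 87.5 and 87.9 CPM in PBS and 53.8 and 51.1 CPM in M5, 1.67-fold lower (log2 fold change -0.74, SE 0.065, edgeR adjusted p = 1.34e-08). DLGAP5, which stabilises spindle fibres near chromosomes, fell 1.48-fold and ASPM, a protein of the poles, 1.46-fold. TPX2, which activates AURKA on the spindle, went from 531 and 535 CPM to 390 and 416 CPM, 1.32-fold lower. Counts of AURKA for each count of TPX2 were 0.345 and 0.33 in PBS and 0.401 in both M5 libraries. CKAP2, a microtubule stabiliser, fell 1.22-fold, from 181 and 183 CPM to 140.4 and 159 CPM.

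Of the 3 cytokinesis genes 2 fell. ANLN, or anillin, the scaffold of the contractile ring, had 524 and 514 CPM in PBS and 331 and 365 CPM in M5, 1.49-fold lower (log2 fold change -0.58, SE 0.057, edgeR adjusted p = 7.54e-08). RACGAP1, the partner of KIF23 in centralspindlin, went from 178 and 180.1 CPM to 125 and 127 CPM, 1.43-fold lower. ECT2 (ENSG00000114346, chromosome 3, 172750682 to 172821474), the exchange factor that RACGAP1 recruits to activate RhoA, had 216 and 222 CPM in PBS and 217 and 229 CPM in M5, and the groups overlapped. Its log2 fold change was 0.03 (SE 0.056, edgeR adjusted p = 0.716). It was -0.12 with library totals and -0.16 with TPM scaling, where it passed as lower, and over all alternatives the adjusted p ran from 0.0233 to 0.962.

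The ratio of ECT2 to its partners does not depend on scaling. For each count of RACGAP1 there were 1.21 and 1.23 counts of ECT2 in PBS and 1.75 and 1.81 in M5. For each count of ANLN there were 0.412 and 0.432 counts of ECT2 in PBS and 0.656 and 0.628 in M5. These pairs, and the others whose ratios are given, were chosen after their values were seen, and with 2 libraries against 2 an exact permutation test could not reach p = 0.05, so no test is given.

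**Figure D3:**
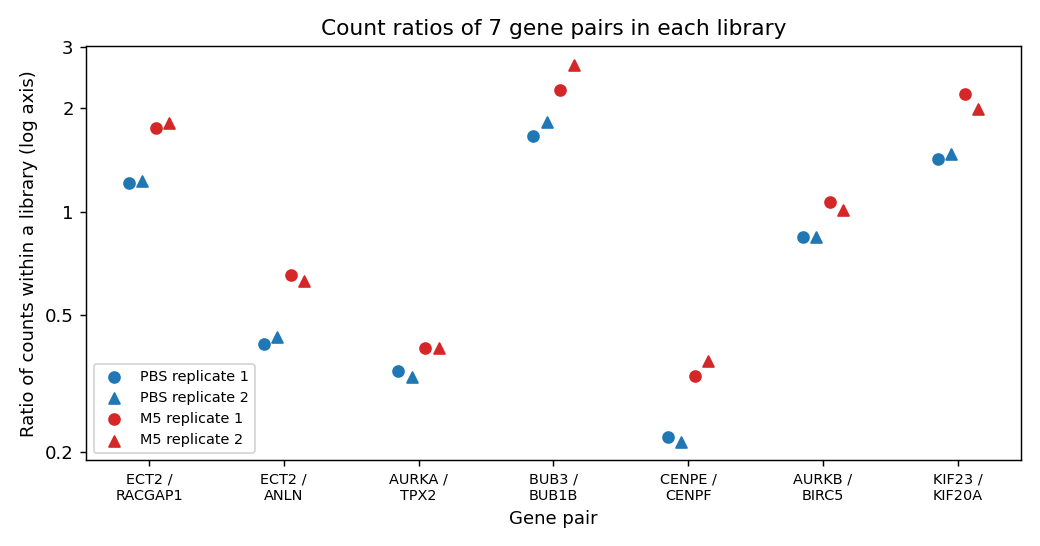
Ratio of the counts of 1 gene to those of another in the same library (log axis) for 7 pairs; each point is 1 library. In each pair both M5 ratios lie above both PBS ratios, as for ECT2 over RACGAP1, from 1.21 and 1.23 to 1.75 and 1.81.

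Genes of chromosome structure and the proliferation antigen Ki-67 kept to a narrow range, with all 6 falling between -0.67 and -0.42. TOP2A, the topoisomerase that untangles replicated DNA, was the most abundant member per length, at 193 ± 4.08 FPKM in PBS and 109 ± 2.08 FPKM in M5. Its CPM was 1161 and 1198 in PBS and 732 and 748 in M5, 1.59-fold lower (log2 fold change -0.67, SE 0.051, edgeR adjusted p = 1.57e-09). MKI67, which coats mitotic chromosomes and is the standard stain for dividing cells, went from 1011 and 1015 CPM to 711 and 632 CPM, 1.51-fold lower. The condensin I subunits were all lower: NCAPH 1.56-fold, the SMC2 and SMC4 arms that compact DNA 1.48-fold and 1.44-fold, and NCAPG 1.34-fold, from 95.9 and 96.6 CPM to 69.5 and 74.3 CPM.

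Per length, the order of the members was nearly the same in both groups. In PBS, TOP2A was followed by CDC20 at 174 ± 4.75 FPKM, TPX2 at 154 ± 0.671, CCNB1 at 134 ± 1.42 and UBE2C at 133 ± 1.41 (SD, n = 2), of which CCNB1 and UBE2C do not differ beyond their spread. The lowest tested member in PBS was CENPE at 8.82 ± 0.0807 FPKM, 1 place below CCNF at 10.9 ± 0.128. In M5 it was KIF18A at 6.64 ± 0.229 FPKM, which does not differ beyond the spread from CENPE at 6.84 ± 0.477. Across the 44 genes the rank correlation of the mean FPKM between groups was 0.97. Neither the level nor the gene length ran with the size of the fall: over the 44 genes, which share the 4 libraries, Pearson's r and Spearman's rho of the log2 fold change were 0.09 and 0.08 with log2 mean FPKM, and 0.00 and 0.08 with log2 length.

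Besides SPC25, 3 members had almost no counts in any library. KIFC1, a minus-end motor that clusters extra centrosomes, had 1 and 5 counts in PBS and 1 and 8 in M5. NUSAP1, which bundles spindle microtubules, had 16 and 3 in PBS and 7 and 2 in M5. PRC1, which crosslinks the central spindle, had 17 and 27 in PBS and 18 and 12 in M5, while the lowest count of any tested member in any library was 384. In GENCODE 29, 62.2% of the exon bases of NUSAP1 and 58.4% of those of PRC1 are also exons of another gene, mostly of a second protein-coding gene on the same strand. The next highest shares were 33.1% in NCAPG (with LCORL) and 25.6% in SMC4 (mainly with TRIM59), on opposite strands, and KIFC1 shared 12.7%. SPC25 shared none, and 28 of the 48 genes shared none. The part of shared exons in these low counts was not tested. The library kit does not mark strand, so reads of the shared stretches of the 20 genes that have any cannot be assigned by strand.

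Other genes of the mitotic and cell cycle machinery were counted from 13 further lists of 229 genes, of which 213 were tested. In these 137 fell and 28 rose, where 27.1% of all tested genes fell and 28.8% rose, and the median was -0.35. Of the 23 tested further kinetochore and centromere genes 17 fell and 1 rose. CENPM, a subunit of the inner kinetochore, fell from 16.1 and 16.8 CPM to 8.04 and 9.36 CPM, 1.89-fold lower. The remaining condensin subunits fell in 4 of 4 cases, led by NCAPD2, the partner of NCAPG and NCAPH, from 408 and 401 CPM to 249.9 and 233 CPM, 1.67-fold lower. In the spindle motor list 17 of 25 fell and 4 rose, led by KIF20B, 1.93-fold lower. With TPM scaling 21 of that list fell and 1 rose, where 43.8% of all tested genes fell.

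Of 16 regulators of mitotic entry 11 fell and 2 rose, where 27.1% of all tested genes fell and 28.8% rose. With TPM scaling 13 fell and 1 rose, where 43.8% of all tested genes fell. NEK2, a centrosome kinase, went from 60.9 CPM in both PBS libraries to 32.5 and 34.1 CPM, 1.83-fold lower. CDC25B, a phosphatase that activates CDK1 at the start of mitosis, rose from 375 and 362 CPM to 638 and 657 CPM, 1.76-fold higher (log2 fold change 0.81, SE 0.053, edgeR adjusted p = 1.84e-10), and also with TPM scaling (0.63). FOXM1, the transcription factor that activates late cell cycle genes, had 172 and 168 CPM in PBS and 108 and 100.0 CPM in M5, 1.63-fold lower. It belonged to a list of MuvB, DREAM and mitotic transcription factors, in which 6 of 12 fell and 1, E2F5, rose by 0.45, a call lost with library totals, with TPM scaling and with DESeq2.

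The further lists are read against the 27.1% of all tested genes that fell and the 28.8% that rose. Cohesin and its regulators fell in 11 of 17 cases and rose in 1, and centrosome genes fell in 12 of 15 and rose in 0. Further checkpoint genes fell in 6 of 7 and rose in 1. The anaphase-promoting complex fell in 6 of 16 and rose in 3 with TMM, not far from those shares. With TPM scaling it fell in 10 and rose in 0, where 43.8% of all genes fell. Further cytokinesis genes, which are also used outside mitosis, fell in 3 of 14 cases and rose in 5 with TMM, but fell in 7 and rose in 4 with TPM scaling, where 43.8% of all genes fell, so no direction is read from this list. CIT, or citron kinase, and CEP55, the midbody organiser, fell 1.47-fold and 1.46-fold, while CHMP4C, which delays the final cut, rose from 17.7 and 20.1 CPM to 28.2 and 28.4 CPM. Tubulins fell in 0 of 6 cases and rose in 5 (1 and 2 with TPM scaling). TUBB6 rose from 103 and 104 CPM to 288 and 266 CPM, 2.68-fold higher (log2 fold change 1.42, and 1.24 with TPM scaling), and TUBB2A 2.51-fold (1.33, and 1.15 with TPM scaling).

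DNA replication genes, which peak earlier in the cycle, stood beside the mitosis genes with a like median, -0.55. Of 44 tested, 38 fell and 0 rose, where 27.1% of all tested genes fell and 28.8% rose. ORC1, of the origin recognition complex, went from 56.4 and 57.9 CPM to 28.2 and 30.8 CPM, 1.94-fold lower. Among 14 tested CDK inhibitors, G1 cyclins and G1 CDKs, 6 fell and 5 rose, against the same shares of all genes, with a median of -0.13. CDKN1A, the inhibitor p21, had 40.8 and 39.2 CPM in PBS and 387 and 365 CPM in M5, 9.39-fold higher, and CDKN2C, the inhibitor p18, had 10.03 and 7.41 CPM in PBS and 1.80 and 1.34 CPM in M5, 5.54-fold lower. Whether either bears on the mitosis genes was not tested.

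**Figure D4:**
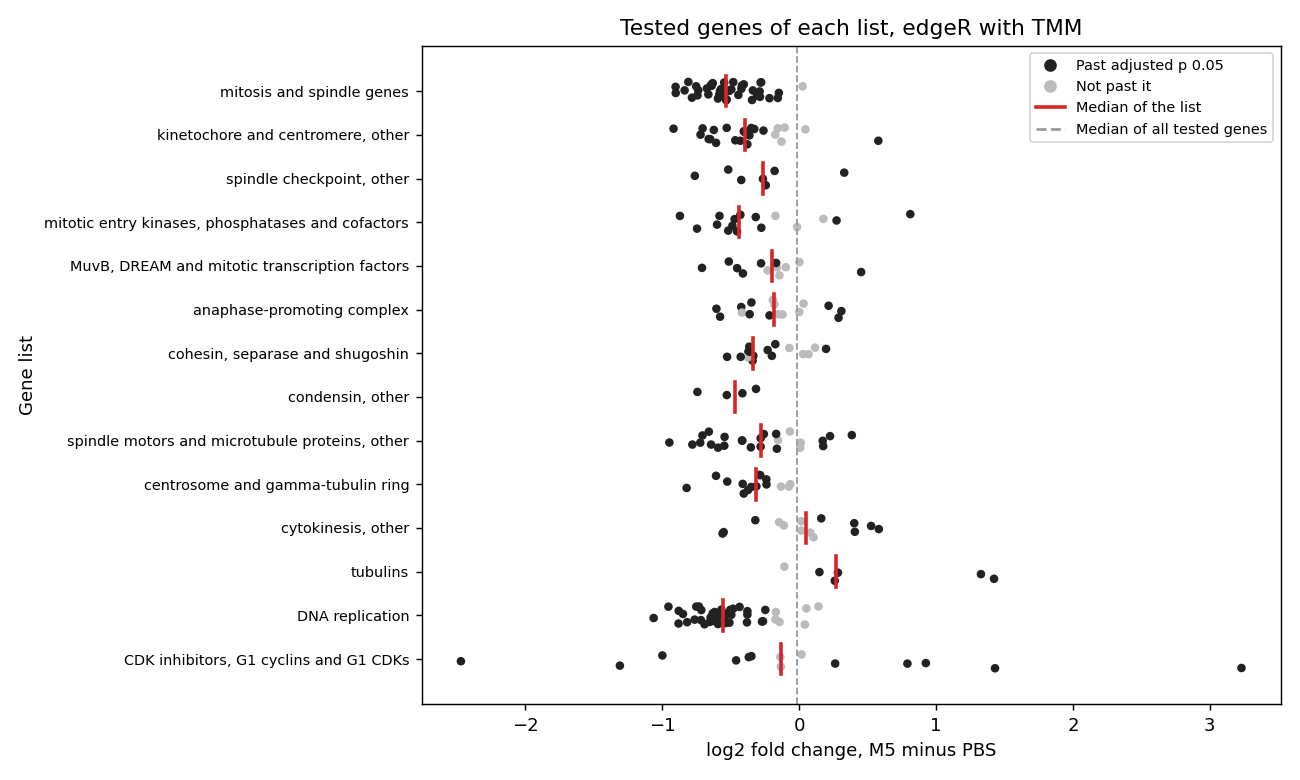
Log2 fold change, M5 minus PBS, of the tested genes of the mitosis and spindle list and of 13 related lists; black points passed an adjusted p of 0.05, grey points did not, red bars are list medians and the dashed line is the median of all tested genes (-0.01). The mitosis list (median -0.53) and the DNA replication list (-0.55) lie lowest, and tubulins (0.27) highest.

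All 11 keratinocyte markers were measured, at 13651 and 13423 summed CPM in PBS and 20683 and 19482 in M5. Of these markers 9 rose and 2, KRT5 and TRIM29, fell, where 28.8% of all tested genes rose and 27.1% fell. Of their defining keratins, KRT5 had 3011 and 2985 CPM in PBS and 1602 and 1475 CPM in M5. KRT14 had 2939 and 2852 CPM in PBS and 3696 and 3301 CPM in M5. Markers of fibroblasts, leukocytes and endothelium summed to at most 6.41 CPM in any library, and those of melanocytes to at most 15.1 CPM, almost all of it MITF at 13.4 CPM in both PBS libraries and 7.65 and 6.88 CPM in M5. PTPRC, CD68, LST1, TYROBP, COL1A2, COL3A1, KDR and TYR had no row in the tables used here. Only 1 of the 5 leukocyte markers, CD3E, had a row, so the leukocyte sum is that of CD3E alone. The part of other cell types in the results was not tested. Mitochondrially encoded RNA took 3.42% to 4.29% of counts, lower in M5, and its part in the falls was not tested.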

How the data were processed

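Each of the 4 libraries has 1 file in which the authors give counts and FPKM for every gene, per the file headers. HTSeq 0.13.5, HISAT2 and GRCh38 appear in the submitters' processing notes, without roles. Annotation release, strand setting and multi-mapped reads: not given in the sources used here. Count, FPKM and file total gave 1 whole-number gene length per gene.

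Counts were tested with edgeR 4.0.16 in R 4.3.3 (glmQLFit and glmQLFTest, two-sided, TMM factors, design of group only) on the 10809 genes that averaged 1 FPKM or more, with Benjamini-Hochberg adjustment and a threshold of 0.05. SE was taken as |log2 fold change| over √F. The main edgeR step was also run on simulated counts that used a common dispersion for all genes. That run does not cover the other steps. The members and lists were chosen with earlier results of these data known. Named are all 48 members, and from the related lists up to 3 called genes with the largest change. Of the markers of other cell types, MITF, the most abundant, is given with its values. Positions come from GENCODE 29, promoters from RefSeq. Alternatives were limma 3.58.1 on log2(FPKM + 1) and log2(FPKM + 0.1), DESeq2 1.42.0, other scalings and filters, a replicate block, each library left out and an adjusted p of 0.01.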

Additional observations from a re-analysis of the deposited data

How the results depend on the processing

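Of the 44 tested members, 40 kept direction and call in all 13 settings. The number that fell ranged from 40 to 44 and the number that rose was 0 throughout (by edgeR, DESeq2 and limma), and leaving out 1 library gave 40 to 43. The median of the members, -0.53, was -0.68 with library totals, -0.72 with TPM scaling, and -0.66 and -0.68 with limma on log2(FPKM + 1) and log2(FPKM + 0.1). None of these applies TMM factors, and the median of all genes moved with them. ECT2, at 0.03, was -0.12 with totals and with both limma settings, -0.16 with TPM scaling, and -0.01 when genes had to average 5 FPKM. Leaving out 1 library gave ECT2 values from -0.01 to 0.07, the lowest without M5 replicate 2. Over all genes, 4463 fell with totals and 4739 with TPM scaling (2929 with TMM), and 2027 rose with TPM scaling, 2010 and 2005 in the limma settings (3114 with TMM). In the related lists 28 genes rose with TMM, 15 with totals and 13 with TPM scaling and with each limma setting. With the replicate number as a block 43 members fell, and no member's call changed. The labels do not say what a shared replicate number means, so the numbers were not taken as pairs. The deviations of libraries with the same number had a correlation of -0.021 across genes. With 2 libraries per group this cannot show whether they are paired. Standard errors of 0.051 to 0.099 on the log2 scale limit what is detectable: falls near 0.15, as in AURKA and BUB3, were at that limit, and KIFC1, NUSAP1 and PRC1 had too few counts to show a change.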

Other observations

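Several related genes also had very few counts. TUBB, a common β-tubulin, had 3 and 3 counts in PBS and 1 and 2 in M5, and the kinetochore gene SKA1 had 0 and 2 in PBS and 0 and 0 in M5. KIF15, a spindle motor, differed within both groups, with 42 and 5 counts in PBS and 2 and 38 in M5. TUBB3, a β-tubulin of neurons, had 47 and 33 counts in PBS and 170 and 241 in M5. All are among the 15 related genes under the FPKM filter, and they were chosen after their values were seen. Of 18 annotated copies of members, mostly processed pseudogenes, 5 had a row, with at most 6 counts in a library.

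The 48 genes lie on 19 chromosomes, with at most 7 on 1 of them (chromosome 1).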
